A study of Chlamydomonas reinhardtii with 12 samples.

Results

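Carbonic anhydrases interconvert CO2 and bicarbonate. *CAH1* to *CAH8* encode 8 such enzymes of the unicellular green alga *Chlamydomonas reinhardtii*, and they were taken by gene identifier, whatever their levels, from the 17741 genes of the count table. All 8 were among the 14251 genes that were tested because they exceeded 1 CPM, a count per library size, in at least 4 libraries. mRNA was sequenced from the wild type CC-125 (WT) and from the *phot* mutant, labelled as a knockout of *PHOT1*, the gene of the blue-light receptor phototropin. Both strains were grown in acetate medium (TAP) and moved to Sueoka's high salt medium (HSM), which holds no acetate. They were then sampled either at low light (LL, 5 µmol photons per square metre and second) or after 60 min at high light (HL, 300 µmol photons per square metre and second).

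This gave 4 groups, WT LL, *phot* LL, WT HL and *phot* HL, with 3 libraries each, named A, B and C. *PHOT1* had 6074 to 8263 counts in the WT libraries and 115 to 181 counts in the *phot* libraries. The mutant was 1 line and its complemented line was not analysed here, so the loss of *PHOT1* and any other difference between the strains cannot be told apart. Total counts ranged from 27136674 to 33906264 per library. In such bulk cultures, fewer cells with a transcript and less of it per cell cannot be told apart either.

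In the carbon-concentrating mechanism (CCM), bicarbonate is pumped into the cell and the chloroplast and turned back into CO2 close to Rubisco. Carbonic anhydrases act along this path, outside the cell, in the mitochondria and in the thylakoid lumen. As background, *CAH1*, *CAH4* and *CAH5* are known as genes induced by low CO2, *CAH2* as a gene held down by it, and the other 4 as less dependent on CO2. CAH1 to CAH3 belong to the alpha class of the enzyme and CAH4 to CAH8 to the beta class.

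The share of all counts that fell on the 8 genes followed the light condition first. It was 0.144% to 0.220% of a library in WT LL, 0.0851% to 0.0958% in *phot* LL, 2.28% to 2.44% in WT HL and 2.92% to 3.10% in *phot* HL, and no groups overlapped. Of the counts on the 8 genes, *CAH1* took 64.5% ± 7.64 in WT LL and 48.0% ± 0.821 in WT HL (SD, n = 3). In WT HL a further 28.2% ± 0.293 fell on *CAH4* and 18.4% ± 0.412 on *CAH5*, which had held 1.48% ± 0.239 and 0.645% ± 0.168 in WT LL. These are shares of reads, which also depend on transcript length, and not amounts of transcript. The shares of a library lack the scaling for RNA composition used below, whose factors were higher in all *phot* libraries. With that scaling, means in WT HL and *phot* HL were 12003 and 15107 CPM for *CAH1*, 7073 and 5286 for *CAH4*, and 4618 and 4812 for *CAH5*. The total of the 8 genes was not computed with that scaling, so no order of the strains in the total is given.

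**Figure D1:**
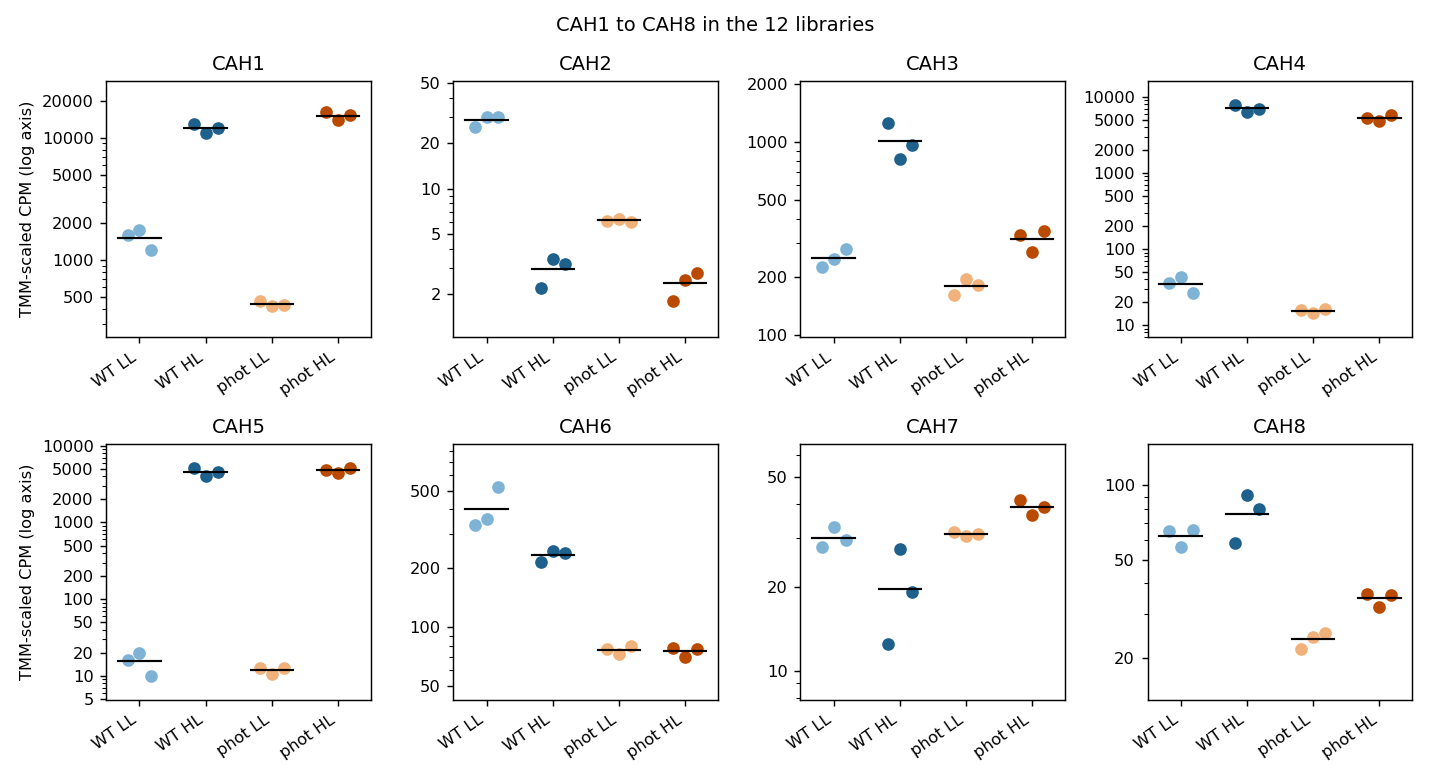
TMM-scaled CPM of each carbonic anhydrase gene (y axis, log scale with its own range in each panel) in the 12 libraries (points, A to C from left to right within a group), with the group mean as a line. *CAH4* and *CAH5* lie between 9.96 and 43.2 CPM in every LL library and between 4100 and 7875 CPM in every HL library, while *CAH6* lies between 70.2 and 79.8 CPM in all 6 *phot* libraries.

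Enzymes on the outer side of the cell come first. *CAH1* (Cre04.g223100, chromosome 4, 2662125 to 2666375, RefSeq annotation of assembly Chlamydomonas_reinhardtii_v5.5 as for all positions) encodes the major periplasmic enzyme, which speeds the supply of inorganic carbon at the cell surface. It rose in HL in both strains, from a level in LL that was lower in *phot* than in WT. Levels below are CPM scaled by TMM, the trimmed mean of M-values, which corrects library totals for differences in RNA composition. *CAH1* was at 1597, 1760 and 1214 CPM in WT LL and at 467, 425 and 434 CPM in *phot* LL. In HL it was at 12986, 11026 and 11996 CPM in WT and at 16137, 13884 and 15302 CPM in *phot*. No 2 groups overlapped, with *phot* lowest in LL and highest in HL.

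On the log2 scale *CAH1* rose by 2.98 ± 0.16 in WT and by 5.09 ± 0.18 in *phot* (fold change ± SE, edgeR quasi-likelihood test, Benjamini-Hochberg adjusted p = 8.24e-10 and 6.87e-11), or 7.87-fold and 34.2-fold. The interaction, which is the *phot* response with the WT response subtracted, was 2.12 ± 0.21 (edgeR quasi-likelihood test, Benjamini-Hochberg adjusted p = 2.6e-06). In LL *CAH1* was lower in *phot* by 3.45-fold, a log2 fold change of -1.79 ± 0.15 (edgeR quasi-likelihood test, Benjamini-Hochberg adjusted p = 1.39e-07). In HL it was at 0.33 ± 0.15, which did not pass the threshold of 0.05 (edgeR quasi-likelihood test, Benjamini-Hochberg adjusted p = 0.0591), although all 3 *phot* libraries lay above all 3 WT libraries. That value passed with upper-quartile factors, at 0.51, with library totals, at 0.65, in a fit to the HL libraries alone, and in 2 of the 12 leave-one-library-out fits, those without library B or C of WT LL (range of adjusted p 0.00861 to 0.236). The p-values describe the spread between these cultures of 2 strains, which the study's methods call biological replicates.

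*CAH2* (Cre04.g223050, chromosome 4, 2656608 to 2661032) encodes a second periplasmic enzyme, made when CO2 is plentiful. It fell in HL in both strains and was lower in *phot* than in WT in LL. Its levels were 25.5, 29.9 and 29.8 CPM in WT LL and 6.12, 6.33 and 6.03 CPM in *phot* LL. In HL they were 2.18, 3.44 and 3.18 CPM in WT and 1.80, 2.49 and 2.78 CPM in *phot*, from 53 to 113 counts a library. The strains were far apart in LL and overlapped in HL.

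*CAH2* fell by 3.26 ± 0.17 on the log2 scale in WT and by 1.39 ± 0.17 in *phot* (edgeR quasi-likelihood test, Benjamini-Hochberg adjusted p = 4.51e-10 and 8.17e-06), or 9.58-fold and 2.61-fold. The interaction was 1.87 ± 0.24 (edgeR quasi-likelihood test, Benjamini-Hochberg adjusted p = 1.74e-05). In LL it was lower in *phot* by 4.61-fold, at -2.21 ± 0.15, and in HL it was at -0.33 ± 0.18 and did not pass (edgeR quasi-likelihood test, Benjamini-Hochberg adjusted p = 1.39e-08 and 0.116). The HL value reached the threshold with DESeq2, at -0.40, and in 2 of the 12 leave-one-library-out fits, at -0.52 without WT HL library A and -0.49 without *phot* HL library C (range of adjusted p 0.0126 to 0.32). *CAH1* and *CAH2* thus had interactions of like sign, the first from a larger rise and the second from a smaller fall in *phot*.

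*CAH8* (Cre09.g405750, chromosome 9, 6164295 to 6169922) encodes a beta-class enzyme at the periplasmic side of the plasma membrane. It was lower in *phot* than in WT in both light conditions, and its light response was small. It was at 65.1, 56.0 and 65.6 CPM in WT LL and at 21.8, 24.3 and 25.1 CPM in *phot* LL. The HL libraries were at 58.5, 91.4 and 79.8 CPM in WT and at 36.2, 32.1 and 36.0 CPM in *phot*. No *phot* library reached the lowest WT library in either light condition, while WT LL and WT HL overlapped.

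The genotype difference of *CAH8* was -1.39 ± 0.14 in LL and -1.14 ± 0.14 in HL (log2, edgeR quasi-likelihood test, Benjamini-Hochberg adjusted p = 8.1e-07 and 4.38e-06), or 2.62-fold and 2.20-fold lower. It rose in HL by 0.55 ± 0.14 in *phot* and was at 0.30 ± 0.14 in WT, where it did not pass (edgeR quasi-likelihood test, Benjamini-Hochberg adjusted p = 0.00407 and 0.0665). Without library B of WT HL, the highest, the WT value was -0.03. In that fit the median of all genes went from 0.05 to -0.16. The WT value was also 0.12 without *phot* LL library A or C or *phot* HL library A or B, which do not enter this comparison. It passed without WT HL library A, at 0.27 (range of adjusted p 0.0391 to 0.851 across the leave-one-library-out fits), and with library totals, at 0.58. The interaction was 0.25 ± 0.20 and did not pass (edgeR quasi-likelihood test, Benjamini-Hochberg adjusted p = 0.307). Without WT HL library B it was 0.55 and passed (range of adjusted p 0.0167 to 0.423), and with library totals it was -0.02, so no order of the light responses is given.

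*CAH4* (Cre05.g248400, chromosome 5, 772398 to 774699) and *CAH5* (Cre05.g248450, chromosome 5, 768025 to 770332) encode mitochondrial beta-class enzymes, thought to recapture respired and photorespired CO2 as bicarbonate. In HL *CAH4* rose 201-fold in WT and 343-fold in *phot*, and *CAH5* 300-fold and 406-fold. *CAH4* was at 35.5, 43.2 and 26.7 CPM in WT LL and at 15.7, 14.3 and 16.2 CPM in *phot* LL. It reached 7875, 6422 and 6922 CPM in WT HL and 5267, 4882 and 5709 CPM in *phot* HL. On this TMM scale *CAH4* was lower in every *phot* library than in every WT library of the same light condition. As a share of library totals the strains overlapped in both. In HL, *phot* library C was at 0.6445% and WT library B at 0.6432%. In LL, *phot* library C was at 0.001936% and WT library C at 0.001759%.

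The levels of *CAH5* were 16.2, 19.9 and 9.96 CPM in WT LL and 12.8, 10.4 and 12.4 CPM in *phot* LL. They were 5205, 4100 and 4549 CPM in WT HL and 4809, 4466 and 5160 CPM in *phot* HL. On the TMM scale the strains overlapped in both light conditions, unlike for *CAH4*. WT LL library C was the lowest of its group for *CAH1*, *CAH4* and *CAH5*.

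The rise of *CAH5* was 8.23 ± 0.26 in WT and 8.66 ± 0.27 in *phot* (log2, edgeR quasi-likelihood test, Benjamini-Hochberg adjusted p = 1.17e-11 and 1.72e-11). Ordered by log2 fold change among the 14251 tested genes, *CAH5* was in place 1 and *CAH4* in place 4 in WT, and they were in places 8 and 9 in *phot*. A rise by more than 7 with an adjusted p under 0.05 was found for 10 genes in WT, or 0.0702% of those tested, and for 21 genes in *phot*, or 0.147%.

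The genotype difference of *CAH5* in LL was -0.38 ± 0.20 and did not pass (edgeR quasi-likelihood test, Benjamini-Hochberg adjusted p = 0.106). It was past the threshold in 8 of the 12 leave-one-library-out fits (range of adjusted p 0.00164 to 0.528). Dropping library C of WT LL gave -0.64, dropping library B of that group -0.14, and the median of all genes over these fits lay between 0.04 and 0.23. The value was -0.56 and passed without WT HL library A or B or any *phot* HL library, which do not enter this comparison. In those fits the median of all genes was 0.04, against 0.22 with all libraries. The difference also passed with median-of-ratios factors, at -0.53, with DESeq2, at -0.53, without a filter, at -0.51, and in a fit to the LL libraries alone, at -0.55. With library totals it was 0.16 and did not pass, so no direction is given. In HL it was 0.06 ± 0.19 and the interaction 0.44 ± 0.28 (edgeR quasi-likelihood test, Benjamini-Hochberg adjusted p = 0.788 and 0.201), and the interaction passed without WT LL library C, at 0.70 (range of adjusted p 0.00749 to 0.536). For *CAH4* the difference was -1.19 ± 0.17 in LL and -0.42 ± 0.16 in HL, of which the second was at -0.10 with library totals and -0.24 with upper-quartile factors and passed with neither. It also fell short without library A or C of WT HL or library A or B of *phot* HL, at -0.36 to -0.45 (range of adjusted p 0.00417 to 0.0727 over the 12 fits). The interaction of *CAH4*, 0.77 ± 0.23, was 0.54 and did not pass with library totals.

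The thylakoid lumen enzyme is encoded by *CAH3* (Cre09.g415700, chromosome 9, 7702059 to 7704127), and it is thought to release CO2 from bicarbonate in the thylakoids that cross the pyrenoid. *CAH3* rose in HL in both strains, less in *phot*, and was 3.21-fold lower in *phot* HL than in WT HL. Its levels were 224, 247 and 279 CPM in WT LL and 162, 194 and 182 CPM in *phot* LL. In HL they were 1253, 820.4 and 969 CPM in WT and 331, 270.1 and 345 CPM in *phot*. The *phot* HL libraries overlapped those of WT LL, and every other pair of groups was apart.

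*CAH3* rose by 2.02 ± 0.16 in WT and 0.82 ± 0.16 in *phot* (log2, edgeR quasi-likelihood test, Benjamini-Hochberg adjusted p = 3.47e-08 and 0.000436), or 4.06-fold and 1.76-fold. The interaction was -1.20 ± 0.22 (edgeR quasi-likelihood test, Benjamini-Hochberg adjusted p = 0.000402), and it was -0.87 without WT HL library A, the highest of its group. *CAH3* was the one gene of the 8 with an interaction below 0 past the threshold. The genotype difference was -1.68 ± 0.16 in HL and -0.48 ± 0.16 in LL (edgeR quasi-likelihood test, Benjamini-Hochberg adjusted p = 2.54e-07 and 0.0123). The LL value was 0.10 with library totals, so its direction depended on the scaling, while the HL value was -1.36 there.

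*CAH6* (Cre12.g485050, chromosome 12, 222630 to 225512) is placed in the chloroplast stroma in the study's list of CCM genes. Its level was lower in *phot* in both light conditions and was nearly the same in *phot* LL and *phot* HL. It was at 331, 357 and 524 CPM in WT LL and at 216, 244 and 238 CPM in WT HL. The *phot* libraries were at 77.3, 72.5 and 79.8 CPM in LL and at 77.7, 70.2 and 77.0 CPM in HL. The *phot* groups overlapped each other and stayed below every WT library.

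In LL *CAH6* was 5.28-fold lower in *phot* and in HL 3.10-fold, at -2.40 ± 0.15 and -1.63 ± 0.15 on the log2 scale (edgeR quasi-likelihood test, Benjamini-Hochberg adjusted p = 6.23e-09 and 1.79e-07). It fell in HL in WT by 0.80 ± 0.15 and was at -0.03 ± 0.15 in *phot* (edgeR quasi-likelihood test, Benjamini-Hochberg adjusted p = 0.000175 and 0.874). The interaction was 0.77 ± 0.21 (edgeR quasi-likelihood test, Benjamini-Hochberg adjusted p = 0.0063). It stayed past the threshold in all 12 leave-one-library-out fits, from 0.57 without WT LL library C to 0.97 without *phot* HL library B, and with library totals, at 0.47.

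*CAH7* (Cre13.g607350, chromosome 13, 5099407 to 5104625) encodes a beta-class enzyme to which no compartment is assigned here. Its strains did not differ past the threshold in LL and stood apart in HL. It was at 27.9, 33.0 and 29.6 CPM in WT LL and at 31.7, 30.7 and 31.0 CPM in *phot* LL. In HL it was at 12.5, 27.4 and 19.3 CPM in WT, from 304 to 900 counts, and at 41.3, 36.3 and 39.0 CPM in *phot*. WT HL was the most spread of all groups of the 8 genes, with a coefficient of variation of 37.7%, against 1.57% in *phot* LL.

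In HL *CAH7* was higher in *phot* by 0.97 ± 0.19 on the log2 scale, or 1.96-fold (edgeR quasi-likelihood test, Benjamini-Hochberg adjusted p = 0.000356), and it was the one gene of the 8 that was higher in *phot* past the threshold. That value ran from 0.71 without WT HL library A to 1.25 without library B. In WT it fell in HL by 0.61 ± 0.19, and in *phot* it was at 0.32 ± 0.19 (edgeR quasi-likelihood test, Benjamini-Hochberg adjusted p = 0.0107 and 0.16). The WT value was -1.10 without WT HL library B and -0.33, short of the threshold, with library totals. All *phot* HL libraries lay above all *phot* LL libraries, and the rise passed in a fit to the *phot* libraries alone, at 0.28, and in 1 of the 12 leave-one-library-out fits (without WT HL library A; range of adjusted p 0.0388 to 0.359). The interaction was 0.93 ± 0.27 (edgeR quasi-likelihood test, Benjamini-Hochberg adjusted p = 0.0102), with 1.39 without WT HL library B and 0.66, short of the threshold, with library totals. In LL the value of 0.04 ± 0.19 turned to -0.11 with median-of-ratios factors and passed with library totals, at 0.61, so no direction is given.

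The spread between replicates of the 8 genes was lower in *phot*, with a median coefficient of variation of 6.90% against 15.2% in WT. In WT HL, library A was the highest of the 3 for *CAH1*, *CAH3*, *CAH4* and *CAH5* and the lowest for *CAH2*, *CAH6*, *CAH7* and *CAH8*. Library B was at the other end for all 8, and library C lay between them. Examples of values that moved when 1 of these libraries was dropped are given with the gene above.

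**Figure D2:**
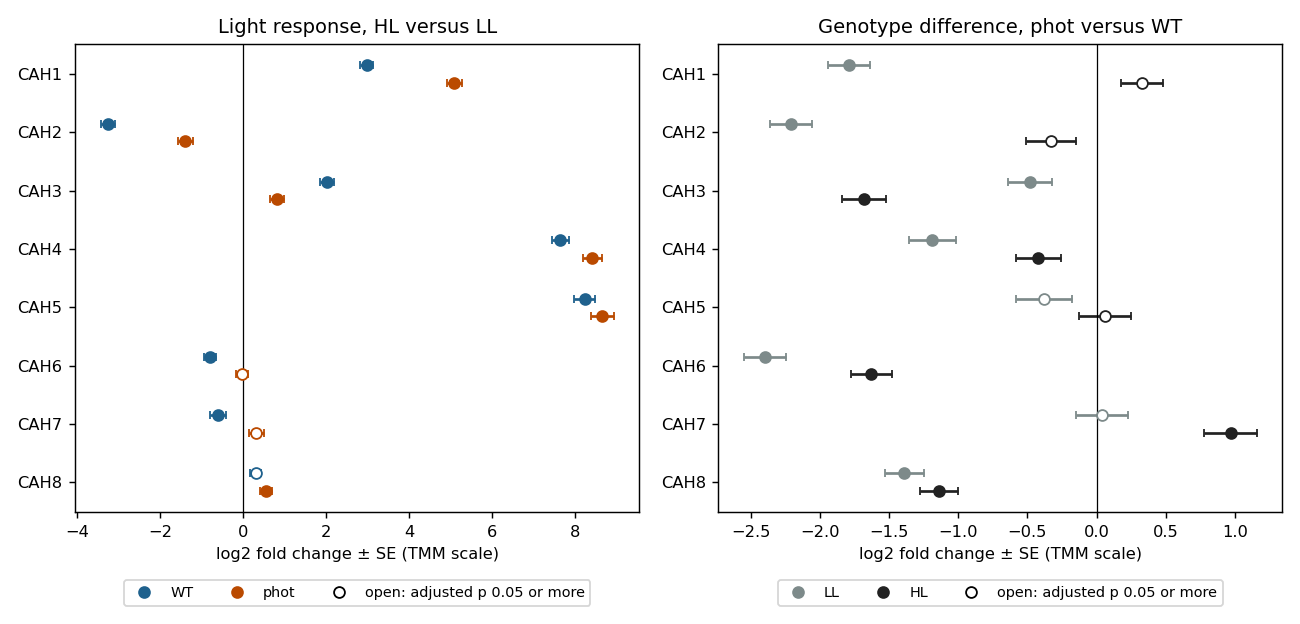
Log2 fold change ± SE (x axis, TMM scale, edgeR) of the 8 genes for HL versus LL in WT and in *phot* (left) and for *phot* versus WT in LL and in HL (right), with open symbols where the adjusted p was 0.05 or more. *CAH1*, *CAH4* and *CAH5* lie between 2.98 and 8.66 for the light response, the other 5 between -3.26 and 2.02, and in *phot* versus WT in LL all lie below 0 except *CAH7*, at 0.04.

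The genes induced by low CO2 were then set against the others. All 3 of them rose in HL in both strains, by 2.98 to 8.23 in WT and by 5.09 to 8.66 in *phot* on the log2 scale. Of the other 5, *CAH3* rose and *CAH2*, *CAH6* and *CAH7* fell in WT, within -3.26 to 2.02, whereas in *phot* *CAH3* and *CAH8* rose and *CAH2* fell, within -1.39 to 0.82. Between strains in HL, the 3 induced genes lay within -0.42 to 0.33 and the other 5 within -1.68 to 0.97. In LL the ranges were -1.79 to -0.38 and -2.40 to 0.04. Of the genes for enzymes outside the cell, *CAH1* rose and *CAH2* fell in HL in both strains. *CAH8*, the third of them, was at 0.30, short of the threshold, in WT and rose by 0.55 in *phot*. Both genes for mitochondrial enzymes, *CAH4* and *CAH5*, rose in both strains.

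The counts of changed genes were set beside those over all genes. In WT, 4 of the 8 genes were higher and 3 lower in HL with an adjusted p under 0.05, where 73.9% of all tested genes passed, 38.9% higher and 35.1% lower. The libraries of HL and LL did not overlap for 7 of the 8, where 73.2% of all genes had none. In *phot*, 5 were higher and 1 lower, with a background of 58.9%, 31.2% higher and 27.7% lower, and 7 did not overlap, with a background of 72.6%. Of the 8 genes 87.5% were called in WT and 75% in *phot*, shares that are not read as a result about these genes.

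For *phot* versus WT in LL, 6 of the 8 were lower and 0 higher, where 72.3% of all genes passed, 28% lower and 44.3% higher, and 6 did not overlap, against 78.5% of all genes. Their median log2 fold change was -1.29, that of all genes 0.22. None, that is 0 of the 8, was higher at an unadjusted p under 0.05 with edgeR, or past the adjusted threshold with DESeq2 (0) or limma-voom (0). In HL 1 was higher and 4 lower, with a background of 73.5%, 38.1% higher and 35.4% lower, and 6 did not overlap, against 75.7%. The interaction passed for 6 of the 8, 5 above and 1 below 0, where 51.8% of all genes passed, 23.5% above and 28.3% below. The light responses and the strain differences share libraries, so these counts are not independent of each other.

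The scaling of libraries bears on each strain difference. The TMM factors of the *phot* libraries (1.09 to 1.23) all exceeded those of the WT libraries (0.66 to 1). With library totals alone, the median of all genes for *phot* versus WT went from 0.22 to 0.79 in LL and from 0.05 to 0.36 in HL. The share of genes called that were higher in *phot* in LL was 61.2% with TMM and 81.4% with library totals, and in HL 51.9% and 67.4%. With library totals 5 of the 8 carbonic anhydrase genes were lower in LL and 1, *CAH7*, was higher, and 3 were lower and 2 higher in HL. Under that scaling 11770 of the 14251 tested genes were called in LL and 10170 in HL. Taken relative to the median of all genes under TMM, the LL differences were -2.01 for *CAH1*, -2.43 for *CAH2*, -0.70 for *CAH3*, -1.41 for *CAH4*, -0.60 for *CAH5*, -2.62 for *CAH6*, -0.18 for *CAH7* and -1.61 for *CAH8*. All 8 therefore lay below the median gene in LL, and *CAH1*, *CAH2*, *CAH4*, *CAH6* and *CAH8* were lower past the threshold under all 4 scalings.

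**Figure D3:**
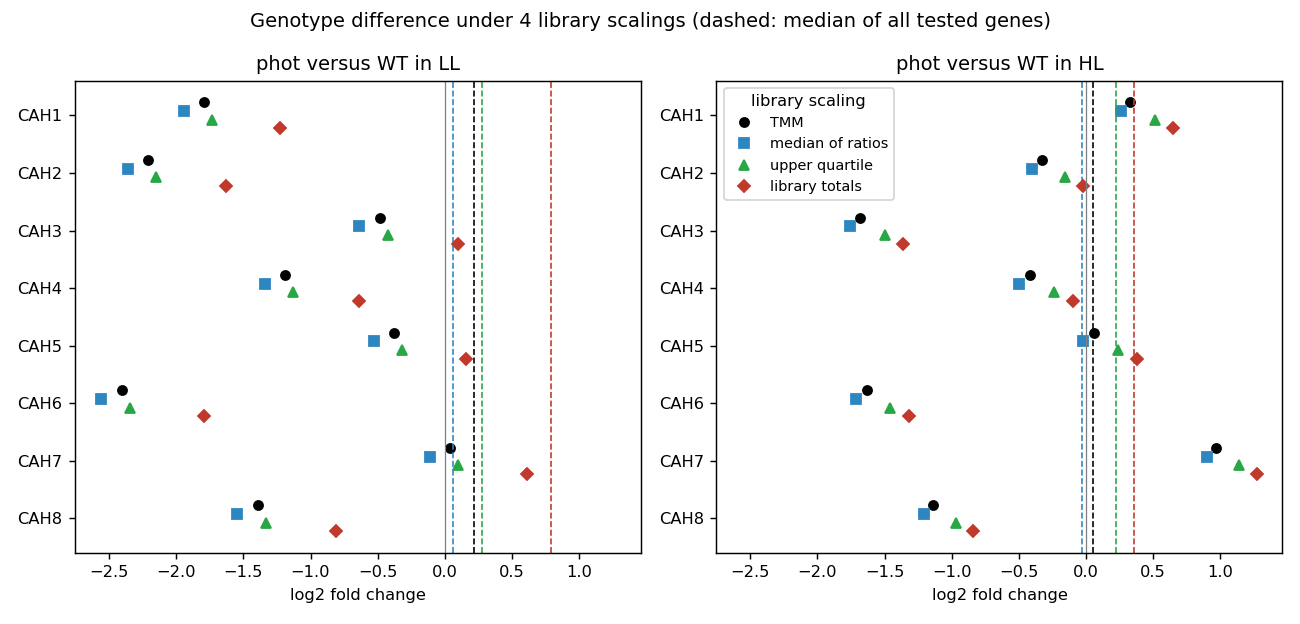
Log2 fold change of *phot* versus WT (x axis) for the 8 genes in LL (left) and HL (right) under TMM, median-of-ratios and upper-quartile factors and library totals, with the median of all tested genes under each scaling as a dashed line. *CAH6* stays between -2.56 and -1.79 in LL, while *CAH3* and *CAH5* cross 0 with library totals, at 0.10 and 0.16.

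*CAH4* and *CAH5* lie side by side, 2065 bases apart, as do *CAH1* and *CAH2*, 1092 bases apart. As background, each pair arose by duplication and its members are close in sequence, the mitochondrial pair nearly identical. Reads that fit both copies may have been divided between them or dropped when the authors counted, so each single copy is uncertain. Summed, *CAH4* and *CAH5* rose by 7.85 ± 0.23 in WT and 8.53 ± 0.24 in *phot*, and the difference between strains was -0.89 ± 0.18 in LL and -0.21 ± 0.17 in HL, of which the second did not pass (edgeR quasi-likelihood test, Benjamini-Hochberg adjusted p = 0.286). The interaction of the sum was 0.68 ± 0.25 (edgeR quasi-likelihood test, Benjamini-Hochberg adjusted p = 0.0336).

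The ratio of counts within a library does not depend on how libraries are scaled. There were 0.456, 0.461 and 0.374 *CAH5* counts for each *CAH4* count in WT LL and 0.814, 0.723 and 0.768 in *phot* LL. In HL the ratios were 0.661, 0.638 and 0.657 in WT and 0.913, 0.915 and 0.904 in *phot*. None of the 4 groups overlapped. The log2 ratio was higher in HL than in LL by 0.43 averaged over strains (0.61 in WT and 0.25 in *phot*), and higher in *phot* than in WT by 0.66 averaged over light conditions (0.84 in LL and 0.48 in HL). Both had p = 0.005 in an exact two-sided permutation test within strata, the smallest value that its 400 arrangements allow, and an adjusted p of 0.00667 over the 4 ratio tests made. Whether the shift with light differed between strains was not tested.

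For each *CAH2* count there were 62.5, 58.8 and 40.7 *CAH1* counts in WT LL and 76.1, 67.0 and 71.7 in *phot* LL. In HL there were 5897, 3193 and 3747 in WT and 8911, 5559 and 5471 in *phot*. HL and LL were thus far apart in both strains, and the strains overlapped in HL. The log2 ratio was higher in HL by 6.39 (exact two-sided permutation p = 0.005, adjusted p = 0.00667), with 6.28 in WT and 6.50 in *phot*, although both genes had a large interaction when taken alone. It was higher in *phot* by 0.54 averaged over light conditions (exact two-sided permutation p = 0.02, adjusted p = 0.02), and by 0.42 without *phot* HL library A (exact permutation p = 0.065; range 0.005 to 0.065 when each library was dropped in turn).

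**Figure D4:**
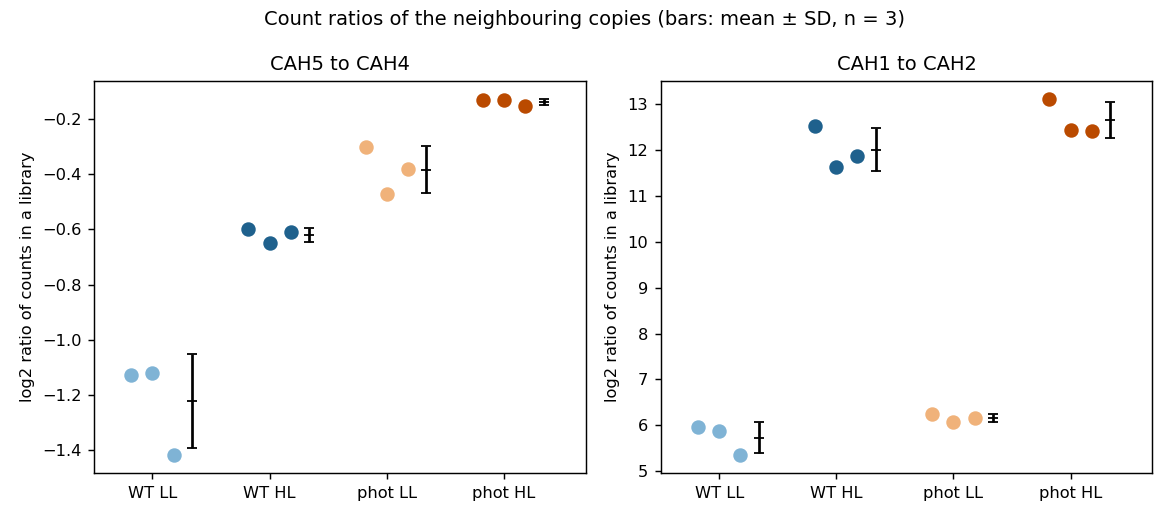
Log2 ratio of counts (y axis) of *CAH5* to *CAH4* (left) and *CAH1* to *CAH2* (right) in each library (points), with mean ± SD (n = 3) beside each group. The *CAH5* to *CAH4* ratio is separate in all 4 groups, from a mean of -1.22 in WT LL to -0.14 in *phot* HL, and the *CAH1* to *CAH2* ratio lies between 5.35 and 6.25 in LL and between 11.64 and 13.12 in HL.

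Across the 12 libraries, which share 4 group levels, the log2 levels of *CAH1*, *CAH4* and *CAH5* moved together, with Pearson's r of 0.98 for *CAH1* and *CAH4*, 0.96 for *CAH1* and *CAH5* and 0.996 for *CAH4* and *CAH5*. *CAH6* and *CAH8*, both lower in *phot*, had r = 0.85, *CAH2* and *CAH5* r = -0.81 and *CAH3* and *CAH7* r = -0.73. These values describe mainly the 4 groups. Among all tested genes the 2 closest to *CAH1* were Cre04.g223300, with r = 0.997, and Cre02.g097050, with r = 0.996. For *CAH4* they were Cre13.g568400, with r = 0.997, and *CAH5*, and for *CAH5* they were *CAH4* and Cre08.g385951, with r = 0.995. *CAH2* was closest to Cre13.g584200 (r = 0.992) and Cre03.g144564 (r = 0.99), and *CAH3* to Cre03.g158500 (r = 0.997) and Cre13.g584850 (r = 0.996). The genes closest to *CAH6* were Cre01.g024050 (r = 0.998) and Cre16.g693400 (r = 0.994), those closest to *CAH7* were Cre17.g742550 (r = 0.989) and Cre02.g080500 (r = 0.981), and those closest to *CAH8* were Cre02.g143527 (r = 0.982) and Cre09.g409325 (r = 0.981). High values of r were frequent: 93 genes exceeded 0.95 with *CAH1*, 255 with *CAH4*, 545 with *CAH6* and 27 with *CAH7*.

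Cre04.g223300, given here by its identifier, lies 5 genes from the *CAH1* and *CAH2* pair on chromosome 4. It was at 44.6 CPM in WT LL, 6.60 in *phot* LL, 4014 in WT HL and 6554 in *phot* HL (means, n = 3), a rise by 6.49 ± 0.32 in WT and by 9.95 ± 0.37 in *phot*. Like *CAH1* it was lowest in *phot* LL and highest in *phot* HL. Of the 10 genes within 5 genes on either side of the pair, all tested, 6 were higher and 3 lower in HL in WT, where 73.9% of all tested genes passed, and 5 and 3 in *phot*, where 58.9% did. Those on the study's CCM list were *CCP2*, which rose by 6.01 in WT and 7.69 in *phot*, *LCID*, by 5.07 and 5.52, and *LCIE*, by 3.06 and 3.51. LCID and LCIE belong to the LCIB family, which is named for a protein found around the pyrenoid. The direct neighbours differed from them: Cre04.g223000, next to *CAH2*, was at -0.23 in WT and -0.12 in *phot*, and Cre04.g223150, next to *CAH1*, at 0.82 and 0.15.

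Around *CAH4* and *CAH5*, 8 of 10 neighbours were tested, and their light responses ran from -0.93 to 2.76 in WT and from -1.38 to 1.80 in *phot*. The direct neighbour of *CAH5*, Cre05.g248500, was at 1.28 and 1.26, and that of *CAH4*, Cre05.g248401, was among the 2 genes below the filter. No tested neighbour came near the rises of 7.65 to 8.66 of the pair itself.

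Other genes of the CCM give the setting. On the study's list of CCM genes, 65 genes other than these 8 were tested. In HL 36 were higher and 21 lower in WT, and 32 and 10 in *phot*, with medians of 0.49 and 0.27 against 0.05 and 0.03 for all genes. Those called made up 87.7% and 64.6% of the list, against 73.9% and 58.9% of all tested genes. Between strains 21 were higher and 26 lower in *phot* in LL, and 23 and 27 in HL, or 72.3% and 76.9% of the list against 72.3% and 73.5% of all genes. The interaction passed for 55.4% of the list, 21 above and 15 below 0, against 51.8% of all genes. *CAH9* (Cre05.g243150), a further carbonic anhydrase gene, fell in WT by 1.31 ± 0.16 in HL and was higher in *phot* by 0.79 ± 0.15 in LL and by 1.84 ± 0.16 in HL, with an interaction of 1.05 ± 0.21 (edgeR quasi-likelihood test, Benjamini-Hochberg adjusted p = 0.000916). *CIA5*, the master regulator of the CCM, was at -0.10 ± 0.10 in WT and fell by 0.53 ± 0.10 in *phot*. *LCIB* and *LCIC*, whose products form a complex around the pyrenoid, rose by 1.09 ± 0.20 and 2.30 ± 0.19 in WT and by 0.64 ± 0.20 and 1.82 ± 0.19 in *phot*. *LCR1*, a MYB factor known to act on *CAH1*, rose by 2.64 ± 0.34 in WT and 1.54 ± 0.33 in *phot*. Its WT HL libraries ran from 164 to 505 CPM. Between strains it was at 0.78 ± 0.33 in LL and at -0.32 ± 0.32 in HL, of which the second did not pass (edgeR quasi-likelihood test, Benjamini-Hochberg adjusted p = 0.0442 and 0.381). The interaction of *LCR1*, -1.10 ± 0.46, did not pass (edgeR quasi-likelihood test, Benjamini-Hochberg adjusted p = 0.0573).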

How the data were processed

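Samples were grouped by their labels into 4 groups of 3 libraries. The authors aligned stranded mRNA reads to assembly version 5 with STAR (2.5.3a per the submitters' processing notes) and ran HTSeq-count with reverse strandedness, in a version not given in the sources used here. What they deposited are the resulting counts, without normalization. All 12 columns were used and 0 were left out. Column names gave the group only, so the letters A to C follow column order and pair nothing.

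Genes with more than 1 CPM in at least 4 libraries, the filter of the study's methods, were tested in R 4.3.3 with the quasi-likelihood test of edgeR 4.0.16 (using limma 3.58.1). A single fit held TMM factors, a coefficient for each group and every library, with no replicate block. P-values were adjusted by Benjamini-Hochberg across the 14251 genes and called under 0.05. The scripts were tested on simulated data. Within-group pairs of libraries differed beyond counting noise (chi-square per degree of freedom 7.69 to 67.7), so each counted as 1 replicate. Count ratios used a pseudocount of 0.5. Ratio tests permuted libraries within the other factor.

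Genes named were the 8 carbonic anhydrase genes, *PHOT1*, *CAH9*, genes of the LCIB family, *LCR1*, *CIA5*, listed or direct neighbours of the copy pairs, and the 2 genes most like each of the 8 by Pearson's r of log2 CPM. The CCM list is the study's own. These genes and lists were chosen with earlier results of these data known. Positions come from RefSeq, whose locus tags matched 17738 of 17741 identifiers and left 3 unmatched. Whether they hold for the authors' version 5 was not examined. Exon lengths and sequences were not used here, so levels are not compared between genes. Alternatives were other scalings, no filter, DESeq2 1.42.0, limma-voom, only the groups compared, each library left out, summed copies and a ratio pseudocount of 3.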

Additional observations from a re-analysis of the deposited data

Results flagged for a closer look

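The light response differed between strains, by the interaction term of edgeR's quasi-likelihood test, for 6 of the 8 genes. With the WT response subtracted, the *phot* response was 2.12 for *CAH1*, 1.87 for *CAH2*, -1.2 for *CAH3*, 0.77 for *CAH4*, 0.77 for *CAH6* and 0.93 for *CAH7* on the log2 scale. Those of *CAH4* and *CAH7* did not pass with library totals, and 51.8% of all tested genes had an interaction past the same threshold.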

How the results depend on the processing

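No paired analysis was possible because the column names carry no replicate number. The number of the 8 genes called moved by at most 1.5 times in each comparison under every alternative run. Single values changed sign. In LL, *CAH7* for *phot* versus WT was -0.11 with median-of-ratios factors and with DESeq2, -0.09 without a filter, -0.13 in a fit to LL alone, and -0.15 to 0.11 when each library was left out in turn. In HL, *CAH5* was -0.02 with median-of-ratios factors and DESeq2, -0.21 when summed with *CAH4*, and -0.05 to 0.13 when each library was left out in turn. Library totals gave 0.1 for *CAH3* and 0.16 for *CAH5* in LL and -0.02 for the interaction of *CAH8*, whose light response in WT ran from -0.03 to 0.33 when each library was left out in turn. Summed with *CAH1*, whose counts dominate, *CAH2* gave 2.95, 5.07 and 0.33 for the light response in WT, that in *phot* and *phot* versus WT in HL. The *CAH5* to *CAH4* log2 ratio was 0.61 in WT and 0.25 in *phot* for light, and 0.84 in LL and 0.48 in HL for strain. The *CAH1* to *CAH2* ratio for strain ran from 0.42 to 0.67 when each library was left out in turn. The cause of these shifts was not tested. *CAH2* in HL, at 53 to 113 counts a library, is the gene most limited by depth.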
